A study of Mus musculus with 3 samples.

Results

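Narrow H3K27me3 regions that touch H3K4me3 were examined in the chromatin of mouse primordial germ cells. A narrow call is a region of the H3K27me3 list with a width of 800 bp or less that shares at least 1 bp with 1 or 2 regions of the H3K4me3 list. Regions on X, Y and the mitochondrial genome, and on chromosome 5 from 111 to 122 Mb, were left out. The members were thus chosen by the width of the H3K27me3 region and its overlap with H3K4me3, which are described and not tested below. The rule found 1507 narrow calls among 18731 H3K27me3 regions (8.05%), or among 17500 on the chromosomes kept. They lay on 1502 of 47928 H3K4me3 regions, called partners here, and formed 1513 overlapping pairs.

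Chromatin immunoprecipitation and sequencing (ChIP-seq) was done on germ cells sorted at E11.5 as the GFP-positive cells of a transgenic Oct4:GFP B6 line crossed to Swiss-Webster females. Gonadal regions of several embryos were pooled before the sort, and 2 aliquots of 104000 and 97000 cells were each split between H3K4me3, H3K27me3 and input. The series holds 3 samples, 1 per precipitation and 1 input, each standing for 2 replicates, and the input was not analysed here. Each mark has 1 list of regions on build mm9 with no count or score. The depth behind a region is therefore not known, and replicate error cannot be given for any value. The intervals given are 95% Wilson intervals, which cover the counting of regions only. Regions are not replicates, so no comparison below has a test. Whether intervals overlap is given as a description and does not decide a difference. No gene was assigned, because no annotation of mm9 was used here, and the germ cell label was therefore not checked against marker genes.

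H3K4me3 is laid down by trithorax-type methyltransferases and sits at the start sites of active genes and at CpG-rich promoters in general. H3K27me3 is laid down by Polycomb repressive complex 2, spreads along silent genes, and often forms domains that run well past the promoter. Promoters of developmental regulators in embryonic and germline cells can carry both marks, a state called bivalent. In pooled cells, an overlap of the lists cannot be told apart from each mark lying in different cells. It is not known from the sources used here if the lists were called jointly.

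The narrow calls held little of the mark, and by the rule each lay at least in part on H3K4me3. They covered 703 kb, which is 1.21% of the H3K27me3 length on the chromosomes kept. Of the 703 kb, 85.3% was shared with H3K4me3, a share that the rule sets in part, since a 200-bp call is shared whole. Their median width was 400 bp (quartiles 200 and 600 bp), and the lists have a step of 200 bp. The partners covered 1298.8 kb in total, of which 46.2% was shared with the narrow calls. Partner width had a median of 600 bp (quartiles 200 and 1200 bp) and reached 6200 bp.

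Narrow calls became fewer with width, whereas narrow H3K27me3 regions without H3K4me3 did not. There were 451 calls of 200 bp, 404 of 400 bp, 352 of 600 bp and 300 of 800 bp. Regions without H3K4me3 numbered 427, 891, 544 and 1253 at the same widths. The share on H3K4me3 was therefore uneven: 51.4% at 200 bp (48.1 to 54.7%), 31.2% at 400 bp (28.7 to 33.8%), 39.3% at 600 bp (36.1 to 42.5%) and 19.3% at 800 bp (17.4 to 21.4%). The value at 600 bp stood above both its neighbours, and fewer regions without H3K4me3 were listed at 600 bp than at 400 or 800 bp. Just outside the limit, 256 of 1328 regions of 1000 bp lay on 1 or 2 H3K4me3 regions (19.3%), the same share as just inside it. These numbers follow from the rule and are given as a description.

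**Figure D1:**
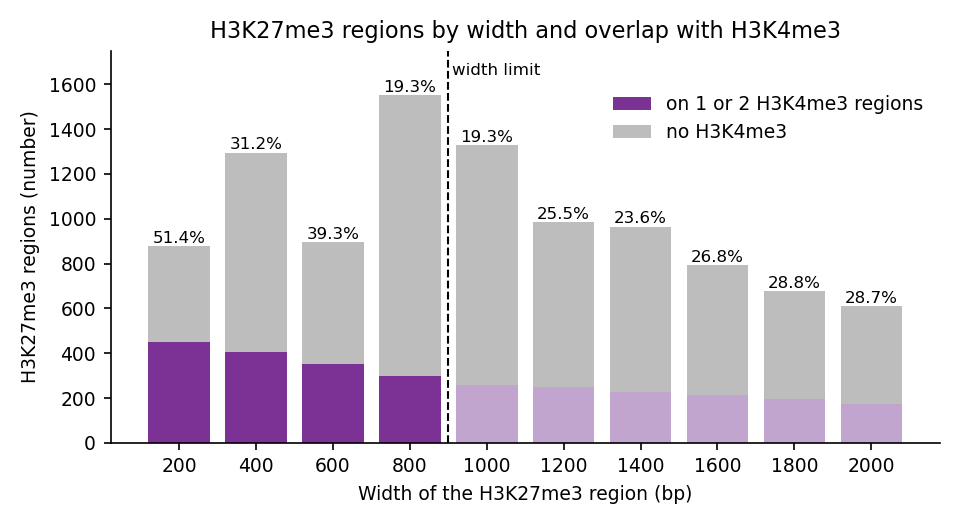
Number of H3K27me3 regions at each width from 200 to 2000 bp, on the chromosomes kept, split by overlap with H3K4me3. The number over each bar is the percentage on 1 or 2 H3K4me3 regions, which falls from 51.4% at 200 bp to 19.3% at 800 bp with a rise to 39.3% at 600 bp, and dark purple bars are the narrow calls.

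Many partners were as narrow as the call or narrower, so the picture of a narrow call on a broader H3K4me3 region held for only part of the pairs. In 775 pairs (51.2%, 48.7 to 53.7%) the call covered the whole partner. In 565 of these pairs both regions had identical ends, and in 210 the call ran past the partner. In the other 738 pairs part of the partner stayed free of H3K27me3. The call lay at an edge of the partner in 548 pairs (36.2%, 33.8 to 38.7%). Of these, 445 were inside with 1 end in common and 103 ran past 1 end. In 190 pairs (12.6%, 11.0 to 14.3%) the call lay inside with H3K4me3 on both sides.

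Place went with the width of the partner, as the geometry requires in part, since a call of 800 bp or less cannot cover a wider partner. Partners of 200 to 800 bp made up 1024 pairs (67.7%). Of these, 75.7% were covered whole, and 55.2% (52.1 to 58.2%) had identical ends. Among the 362 pairs with a partner of 1000 to 2000 bp, 71.5% of calls were at an edge and 28.5% in the middle. Among the 105 pairs with a partner of 2200 to 4000 bp, 51.4% were in the middle (42.0 to 60.8%). Only 22 pairs had a partner over 4000 bp, with 15 calls in the middle and 7 at an edge. The median share of the partner under the call was 100% for the narrowest class, 37.5% for 1000 to 2000 bp, 18.8% for 2200 to 4000 bp and 12.2% above that. Other H3K27me3 regions on the same partner are not counted in it.

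**Figure D2:**
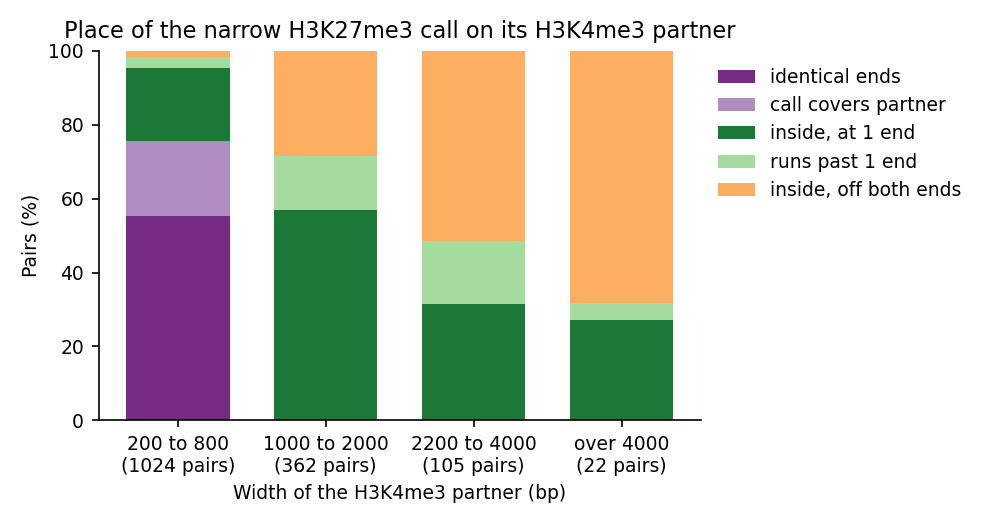
Percentage of pairs in each place (colours) for 4 width classes of the H3K4me3 partner in bp, with the number of pairs under each bar. Identical and covering pairs occur only with partners of 200 to 800 bp, and calls off both ends grow from 1.76% of pairs in that class to 68.2% over 4000 bp.

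Ends in common with the partner were frequent in narrow calls. Both ends coincided in 565 pairs (37.3%, 34.9 to 39.8%), 1 end in 646 (42.7%) and none in 302 (20.0%, 18.0 to 22.0%). In H3K27me3 regions of 1000 to 6000 bp on 1 or 2 H3K4me3 regions, these shares were 2.79% (2.31 to 3.37%), 29.0% and 68.2% (66.7 to 69.7%) of 3763 pairs. Over all pairs on the chromosomes kept, 7.8% had identical ends. On the same grid a pair of narrow regions can overlap in fewer ways than a pair of wide ones, which raises the share with coinciding ends, so widths enter these differences. Left and right ends coincided equally often, in 887 and 889 pairs.

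Identical ends became rarer with width without a break at the limit. They made up 60.5% of pairs at 200 bp (273 of 451), 34.9% at 400 bp, 24.9% at 600 bp and 20.7% at 800 bp. At 1000 bp, outside the limit, the share was 18.99% (14.7 to 24.2%), and at 1200 bp it was 5.77% (3.53 to 9.30%). The intervals at 1000 and 1200 bp did not overlap, while the share at 800 bp lay inside the interval at 1000 bp. At 200 bp a call that meets a 200-bp partner must have identical ends.

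**Figure D3:**
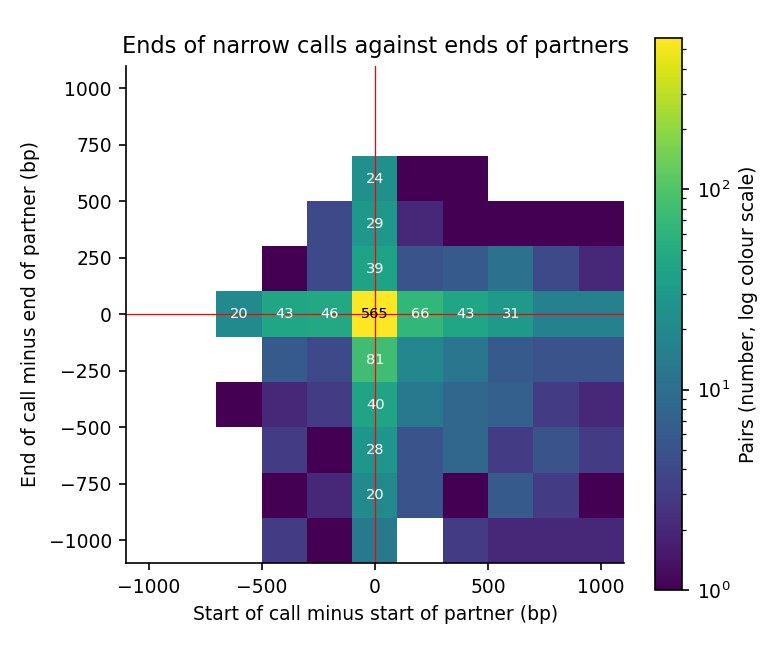
Number of pairs (colour, log scale) by the offset of the call's start (horizontal, bp) and end (vertical, bp) from those of its partner, for the 1321 pairs with both offsets within 1000 bp. Numbers are printed in cells of 20 or more pairs, red lines mark coinciding ends, and the cross along them holds the 565 identical pairs and pairs with 1 end in common.

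Calls inside a wider partner often sat against its end. Of 635 calls inside a wider partner, 445 were flush with an end (70.1%, 66.4 to 73.5%), whereas flush positions were on average 53.0% of the positions open to these calls. For partners of 1000 to 2000 bp the values were 66.7% (61.2 to 71.7%) against 44.1%, and for partners of 2200 to 4000 bp 37.9% (28.5 to 48.4%) against 17.8%. Both ends of the partner were used about alike, with 230 calls at the end of lower coordinate and 215 at the other. The same held where the call was the wider region. Of 113 calls that covered a single partner and were at least 400 bp wider than it, 106 (93.8%, 87.8 to 97.0%) still had 1 end in common. Such positions were 60.8% of those possible. In regions of 1000 to 6000 bp this was 36.3% (34.2 to 38.4%) of 2044, against 23.5% of positions. The share of positions counts places on the grid and is not a test.

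Calls off both ends were mostly within a few steps of an end, which the widths require in part. The median width was 600 bp for these calls and 1700 bp for their partners. Among the 190, the nearer end of the partner was 1 step of 200 bp away in 82, 2 steps in 42 and 3 or more in 66. The median distance to that end was 400 bp and the largest 2200 bp. The median offset of the call's centre from the partner's centre was 200 bp, and in 93 of the 190 it was at most 100 bp. Calls that ran past 1 end did so by 200 bp in 61 of 103 pairs and by at most 600 bp.

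The widest partners show how small the H3K27me3 call can be beside the H3K4me3 region. The widest of all, 6200 bp on chromosome 2, carried an 800-bp call (chr2:127948601-127949400) flush with one end, with 5400 bp of H3K4me3 left free. Its nearest other H3K27me3 region was 94.8 kb away. A 6000-bp partner on chromosome 11 carried a 600-bp call (chr11:84337401-84338000) with 2200 bp of H3K4me3 before it and 3200 bp after it. This H3K4me3 was not all free, since another H3K27me3 region, 4600 bp wide, lay 0.6 kb from the call and so also met the partner. A second 6000-bp partner, on chromosome 10, carried a 400-bp call (chr10:19072401-19072800) 400 bp from its end. The nearest other H3K27me3 region, 7000 bp wide, was 3.8 kb from that call, on a side not recorded here. Partners of 5800 and 5600 bp on chromosome 7 carried calls of 400 bp (chr7:16897401-16897800) and 800 bp (chr7:29957001-29957800). Calls thus covered 6.67 to 14.3% of these 4 partners with a middle call, with other H3K27me3 on a partner not counted.

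The other edge calls on the widest partners differed in their surroundings. A 5000-bp partner on chromosome 11 had a flush 800-bp call (chr11:69613401-69614200) just 0.2 kb from another H3K27me3 region. A 4800-bp partner on chromosome 8 shared only 200 bp with a call that ran past its end (chr8:123064001-123064800). A 4600-bp partner on chromosome 7 had a flush 800-bp call (chr7:86641001-86641800), 2.8 kb from an H3K27me3 region of 14000 bp. Among calls covering the whole partner the widest had identical 800-bp regions, and the first of these by position were on chromosome 1 (chr1:14294801-14295600, chr1:19086801-19087600, chr1:39418401-39419200 and chr1:92913601-92914400). The second of them lay 0.4 kb from an H3K27me3 region of 19800 bp, and the third 15.2 kb from its nearest neighbour.

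Calls and partners were nearly always paired 1 to 1. For calls this follows largely from the rule, since a call of 200 or 400 bp cannot meet 2 separate regions on the grid. Of the partners, 1491 carried 1 narrow call, 11 carried 2 and 0 carried more. The widest with 2 was a 3400-bp region on chromosome 5, with an 800-bp call running past one end (chr5:28535201-28536000) and a 200-bp call at the other (chr5:28538601-28538800). The next, of 3000 bp on chromosome 13, had a 600-bp call off both ends (chr13:34435601-34436200) and a 200-bp call at its end (chr13:34437801-34438000). The third, of 2800 bp on chromosome 11, had calls of 600 and 800 bp only 0.2 kb apart (chr11:68212001-68212600 and chr11:68212801-68213600). Among all partners, with 1 or 2 narrow calls, 46 also lay under an H3K27me3 region wider than 800 bp. Only 6 calls met 2 partners, and all 12 of those partners were covered whole. One of the 6, on chromosome 4 (chr4:57686401-57687200), held a pair of 200-bp H3K4me3 regions.

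As a whole, narrow calls were more isolated from other H3K27me3 than equally narrow regions that lacked H3K4me3, with an exception at 5 kb on the widest partners given below. Another H3K27me3 region lay within 1 kb of 288 calls (19.1%, 17.2 to 21.2%), against 1067 of 3115 regions of 800 bp or less without H3K4me3 (34.3%, 32.6 to 35.9%). The share over all 17500 regions was 28.3%. Within 5 kb the shares were 37.8% (35.3 to 40.2%), 61.2% (59.4 to 62.9%) and 59.3%. The median distance to the nearest other H3K27me3 region was 13.0 kb for narrow calls (quartiles 1.6 and 82 kb) and 2.6 kb for narrow regions without H3K4me3 (0.6 and 12.8 kb). More than 100 kb separated 21.6% of narrow calls from any other H3K27me3, against 7.26% of the regions without H3K4me3.

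This difference was present at each width. At 200 bp, 22.4% of calls (18.8 to 26.5%) had H3K27me3 within 1 kb against 56.7% (51.9 to 61.3%) of regions without H3K4me3. At 400 bp the shares were 18.8% and 31.6%, at 600 bp 17.3% and 38.8%, and at 800 bp 16.7% (12.9 to 21.3%) and 26.5% (24.1 to 29.0%). None of the 4 pairs of intervals overlapped. The surroundings showed the same: within 50 kb on either side, the other H3K27me3 summed to a median of 2.6 kb for narrow calls and 9.6 kb for narrow regions without H3K4me3. It was 0 for 32.5% and 12.3% of them.

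Isolation also varied with the width of the partner. H3K27me3 lay within 5 kb of 38.4% of calls on partners of 200 to 800 bp (35.5 to 41.4%), 30.7% at 1000 to 2000 bp (26.1 to 35.6%) and 48.6% at 2200 to 4000 bp (39.2 to 58.0%). For the 22 calls on partners over 4000 bp it was 72.7% (51.8 to 86.8%), with a median distance of 3.1 kb. At 5 kb these last calls were thus not isolated: their interval held the 61.2% of narrow regions without H3K4me3, and it did not overlap those of partners of 200 to 800 or 1000 to 2000 bp. Within 1 kb their share was 22.7% (10.1 to 43.4%), an interval that held both the 19.1% of all narrow calls and the 34.3% without H3K4me3. Their other H3K27me3 within 50 kb had a median of 3.7 kb, nearer the 2.6 kb of all narrow calls than the 9.6 kb without H3K4me3. A neighbour within 5 kb can lie on the same wide partner, as on chromosome 11 above.

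The narrow calls were closer in isolation to the wider H3K27me3 regions on H3K4me3. Of 3463 regions of 1000 to 6000 bp on 1 or 2 H3K4me3 regions, 19.9% (18.6 to 21.3%) had another H3K27me3 region within 1 kb, with intervals that overlapped those of the narrow calls. Within 5 kb it was 42.1% (40.5 to 43.8%), above the interval of the narrow calls, and the median distance was 9.6 kb. More than 100 kb separated 20.2% of them from other H3K27me3.

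**Figure D4:**
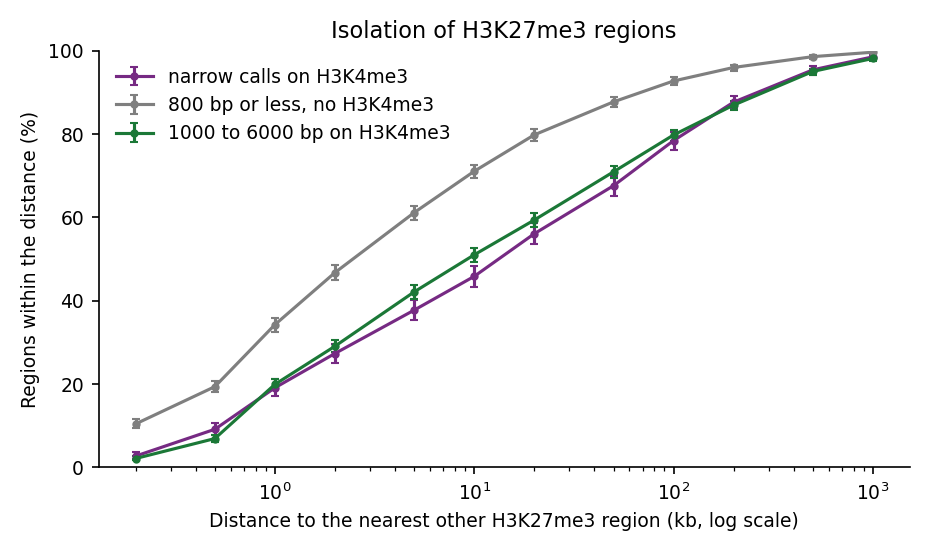
Percentage of regions with another H3K27me3 region within a given distance (kb, log scale), with 95% Wilson intervals. At 1 kb the narrow calls stand at 19.1%, the 1000 to 6000-bp regions on H3K4me3 at 19.9% and the narrow regions without H3K4me3 at 34.3%.

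For isolation at 1 kb the intervals of the places overlapped, and at 5 kb those of some places did not. H3K27me3 lay within 1 kb of 22.1% of calls with identical ends (18.9 to 25.7%), 22.1% of covering calls, 17.3% of flush calls (14.1 to 21.1%), 14.7% of calls in the middle (10.4 to 20.5%) and 12.6% of calls running past 1 end (7.53 to 20.4%). All 5 of these intervals overlapped. Within 5 kb the share was 45.6% for covering calls (38.9 to 52.4%) and 30.5% for calls in the middle (24.4 to 37.4%), whose intervals did not overlap. No other H3K27me3 lay within 50 kb of 21.6% of covering calls and 42.1% of calls in the middle. The median distance was longest for calls in the middle, at 29.1 kb, and shortest for covering calls, at 7.2 kb. Where H3K27me3 did lie within 1 kb, it was on 1 side only in 255 calls and on both in 33. When H3K27me3 regions less than 1 kb apart were joined, 245 calls became part of a region wider than 800 bp, and 67 of a region wider than 5 kb.

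The partners were also more isolated from other H3K4me3 than H3K4me3 regions in general. Another H3K4me3 region lay within 1 kb of 157 of 1502 partners (10.5%, 9.01 to 12.1%), compared with 15.7% (15.3 to 16.0%) of 37746 regions without H3K27me3 and 24.7% (23.7 to 25.7%) of 6968 regions under wider H3K27me3 only. The share over all H3K4me3 regions on the chromosomes kept was 16.9%. The median distance to the next H3K4me3 region was 9.8 kb for partners, 6.0 kb without H3K27me3 and 4.4 kb under wider H3K27me3. The difference from regions without H3K27me3 was present for partners of 200 to 800 bp (10.2%, 8.46 to 12.2%, against 16.5%, 16.0 to 17.0%) and of 1000 to 2000 bp (8.38%, 5.93 to 11.7%, against 13.1%, 12.4 to 13.7%). For wider partners the intervals overlapped: 18.2% (11.8 to 26.9%) against 15.7% at 2200 to 4000 bp, and 22.7% (10.1 to 43.4%) against 28.5% above that.

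H3K4me3 regions of all 4 width classes carried narrow calls, each at a low rate. Narrow calls lay on 3.39% of H3K4me3 regions of 200 bp (3.08 to 3.73%), on 4.35% at 400 bp (3.87 to 4.89%), on 4.19% at 800 bp and on 1.68% at 2000 bp (1.16 to 2.44%). By class, the shares were 3.82% (3.60 to 4.06%) for 200 to 800 bp, 2.68% (2.42 to 2.96%) for 1000 to 2000 bp, 1.83% (1.51 to 2.23%) for 2200 to 4000 bp and 3.17% (2.10 to 4.75%) above 4000 bp. H3K27me3 wider than 800 bp went the other way over the first of these classes, from 10.95% of H3K4me3 regions of 200 to 800 bp (10.6 to 11.3%) to 22.0% of those of 1000 to 2000 bp (21.3 to 22.7%). Partners had the same median width, 600 bp, as H3K4me3 regions without H3K27me3, and regions under wider H3K27me3 only had a median of 1000 bp.

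Narrow calls were spread over all 19 autosomes. Their density was 0.612 per Mb overall and ran from 0.395 per Mb on chromosome 3 to 0.903 on chromosome 11. H3K4me3 regions were also densest on chromosome 11, at 30.5 per Mb, and partners made up a narrow range of the H3K4me3 regions, from 2.74% on chromosome 16 to 3.79% on chromosome 10. As a share of H3K27me3 regions the calls varied more, from 6.58% on chromosome 8 (5.25 to 8.20%) to 13.4% on chromosome 10 (11.2 to 16.0%). Chromosome 10 was thus the highest on both measures, but not set apart. As a share of H3K4me3 regions chromosome 14 followed at 3.78%. As a share of H3K27me3 regions chromosome 3 followed at 11.4% (9.01 to 14.3%), with an interval that overlapped that of chromosome 10. Identical ends made up 27.7% of the calls of chromosome 15 and 44.2% of those of chromosome 16, the lowest and highest shares.

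**Figure D5:**
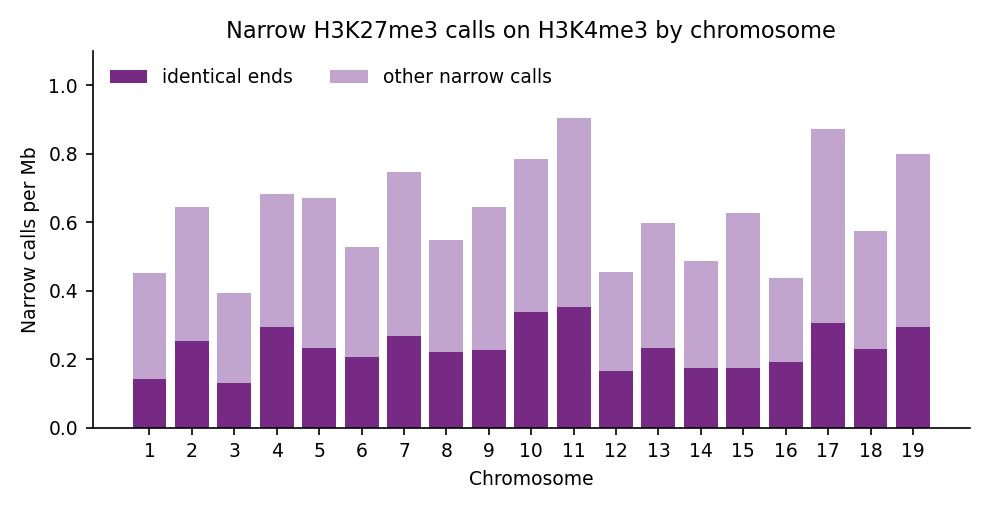
Narrow calls per Mb of mm9 sequence on each autosome, with chromosome 5 counted outside 111 to 122 Mb. Dark bars are calls with identical ends and light bars all others. Chromosome 11 is highest at 0.903 per Mb and chromosome 3 lowest at 0.395.

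Calls were far apart in general, and some shared a window of 1 Mb. Successive calls were a median of 629.3 kb apart, and 49 of 1488 successive pairs were within 5 kb. Of 906 windows with a call, 561 held 1, 203 held 2 and the rest held more. The most were 9, on chromosome 11 (chr11:94000001-95000000), among 49 H3K27me3 and 59 H3K4me3 regions. Windows on chromosome 1 (chr1:173000001-174000000) and chromosome 2 (chr2:164000001-165000000) held 8 each, among 20 and 58 H3K27me3 regions. Each of these 3 windows mixed places: 4, 4 and 3 of their calls had identical ends.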

How the data were processed

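The submitters' processing notes name Bowtie 0.12.7 and build mm9. For each mark the authors deposited a single list of contiguous regions, whose values are positions in bp and carry no other measurement. The file names point to ChromHMM, a hidden Markov model that calls chromatin states in fixed bins. Its version, settings and handling of input and replicates: not given in the sources used here. Per the labels' protocols, cross-linking used 0.25% formaldehyde for 10 min, each precipitation 2.4 µg of antibody, and amplification 20 cycles (15 for input). Every position was a multiple of 200 bp. Calling whole bins rounds widths and makes coinciding ends more frequent.

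Narrow calls were found with at least 1 bp of overlap. Whole, middle and edge describe whether a call covers its partner, leaves at least 200 bp of it on both sides, or neither. Coordinates count from 1. Lengths came from GenomeInfoDb 1.38.1 (R 4.3.3), and all 22 chromosomes with regions ended inside their mm9 length. The classification was tested on simulated data. Python 3.11.15, numpy 2.4.6 and pandas 2.3.3 were used. The gene and promoter tables at hand are of GRCm38, so no gene, promoter, sequence or gene list was analysed here. Regions were named by a rule: for each place the 4 calls on the widest partners, the 3 widest partners with 2 calls, and the 3 windows of 1 Mb with the most calls. The region on chromosome 4 with 2 partners was named after its values were seen. Places, width classes, comparison groups and alternatives were chosen with earlier results of these data known. The grid positions and the comparisons at matched width were added after the values were seen.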

Additional observations from a re-analysis of the deposited data

Results flagged for a closer look

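Regions that met the same width and overlap limits also occurred in the sequence left out, where no comparison was made. On X there were 97 such calls among 578 H3K27me3 regions (16.8%, 95% Wilson interval 14.0 to 20.0%), at 0.582 per Mb, and 30.6% of their 98 pairs (22.4 to 40.3%) had identical ends. On chromosome 5 from 111 to 122 Mb there were 18 among 652 (2.76%, 1.75 to 4.32%), at 1.64 per Mb, and 8 of their 18 pairs had identical ends. The share on the chromosomes kept was 8.61% (8.20 to 9.04%). With no control samples among these lists, the 97 and the 18 calls were picked out only because they lie above a count of 0.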

How the results depend on the processing

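Of 40 values under 7 alternative settings of 6 results, 22 stayed alike, 18 moved and 0 changed direction. Only the difference from narrow regions without H3K4me3 can change direction, since the other results are counts, percentages or medians that cannot be negative. Percentages count as alike inside the interval of the reported value, numbers and medians within 1.5 times of it. Leaving out regions of a single 200-bp step gave 932 calls, 39.9% of pairs covering the whole partner and 55.4% with a partner of 200 to 800 bp. It also gave 15.8% of calls within 1 kb of other H3K27me3. The difference from narrow regions then without H3K4me3 was -11.7 percentage points (reported -15.1). An overlap of at least 400 bp gave 875 calls, 42.5% whole, 56.0% narrow partners and 17.1% within 1 kb. Without identical ends there were 942 calls, 22.2% whole, 48.4% narrow partners and a median of 50.0% of the partner covered, against 100% as reported. Joining regions less than 1 kb apart gave 48.0% whole and 65.0% narrow partners. A limit of 600 bp gave 71.3% narrow partners and a difference of -19.8 points, and a limit of 1000 bp gave 63.9% narrow partners. The first 3 settings remove narrow calls or pairs by construction, and the other causes were not tested. Under these 3 settings, calls with no pair left were counted among the narrow regions without H3K4me3. Their differences from that group, also where counted as alike, thus use another comparison group than the reported one. With regions joined, no neighbour within 1 kb can remain, so those results were not run. No paired analysis was possible because each mark has 1 list, and no replicate could be left out. Depth sets an unknown limit on which narrow regions were called.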
